A study of Homo sapiens with 6 samples.

Results

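The 41 genes described here encode the proteins that repair broken chromosomes by homologous recombination, the kinases of the damage checkpoint, and the Fanconi anemia proteins that act on crosslinked DNA. They were taken as a list of symbols that was drawn up with earlier results of these data known, so their share of calls is a description and not independent evidence: the BRCA1-BARD1 pair with PALB2 and BRCA2, 5 subunits of the BCDX2 and CX3 complexes, 3 partners of strand exchange, 5 genes of end binding and resection, 5 of the RecQ helicases and the dissolvasome, the 2 subunits of the MUS81-EME1 nuclease, 4 checkpoint kinases, 9 genes of the Fanconi core complex and its E2 enzyme, FANCD2, FANCI and BRIP1, and POLQ. All 41 were among the 21850 genes of the count table, and all 41 passed the filter on low counts that left 13971 genes for testing. RNA was sequenced from MM.1S cells, a human multiple myeloma line, on day 3 after lentiviral infection. In 3 libraries the cells were labelled WT and had received a scramble short hairpin RNA (shNT), and in 3 they were labelled as a PRKCN knockdown and had received a hairpin against PRKCN (shPRKCN), so that both groups carried a virus and a hairpin. The model is 1 cell line, the sources do not say which PRKCN hairpin was used, and they describe sorting of transduced cells for a vector marker in general without naming the sequenced cells, and nothing says that the libraries of a group came from separate cultures, so the p-values measure only the spread between these libraries, which may be technical. PRKCN is listed under its other symbol, PRKD3, which encodes a kinase of the protein kinase D family.

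Homologous recombination repairs a broken chromosome by copying the sister chromatid, and is therefore largely limited to S and G2 phase. The broken end is bound by MRE11, RAD50 and NBN and trimmed to a single strand, BRCA2 prepares that strand for pairing with the help of PALB2 and BRCA1-BARD1, and helicases and nucleases later separate the joined chromosomes. ATM and ATR are the kinases that sense the damage and signal through CHEK2 and CHEK1, and the Fanconi core complex attaches ubiquitin to the FANCD2-FANCI pair at stalled forks.

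Most of these genes were lower in the shPRKCN libraries. By edgeR's quasi-likelihood test, 21 of the 41 (51.2%) were called lower, that is, their adjusted p was under 0.05 and their log2 fold change passed 0.58, where 10.6% of all tested genes were. None was called higher, against 6.15% of all tested genes, and DESeq2 gave the same counts of 21 and 0. At an unadjusted p under 0.05, 1 member was higher by either tool. Without the fold limit, 32 members (78.0%) were lower at an adjusted p under 0.05, beside 27.8% of all genes, and only ATR was higher, beside 26.5%. In 31 members the highest shPRKCN library stayed under the lowest shNT library in normalised counts, in none did they all lie above, and in 10 the groups overlapped. Over all tested genes these shares were 29.8% below and 29% above. The median log2 fold change of the 41 genes was -0.59, beside 0.0012 over all tested genes. Their summed level ran from 358 to 362 FPKM (reads scaled by gene length and library total) in shNT and from 251 to 259 FPKM in shPRKCN, or 28.8% lower. In these bulk libraries, fewer cells that transcribe a gene and less RNA of it per cell cannot be told apart.

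**Figure D1:**
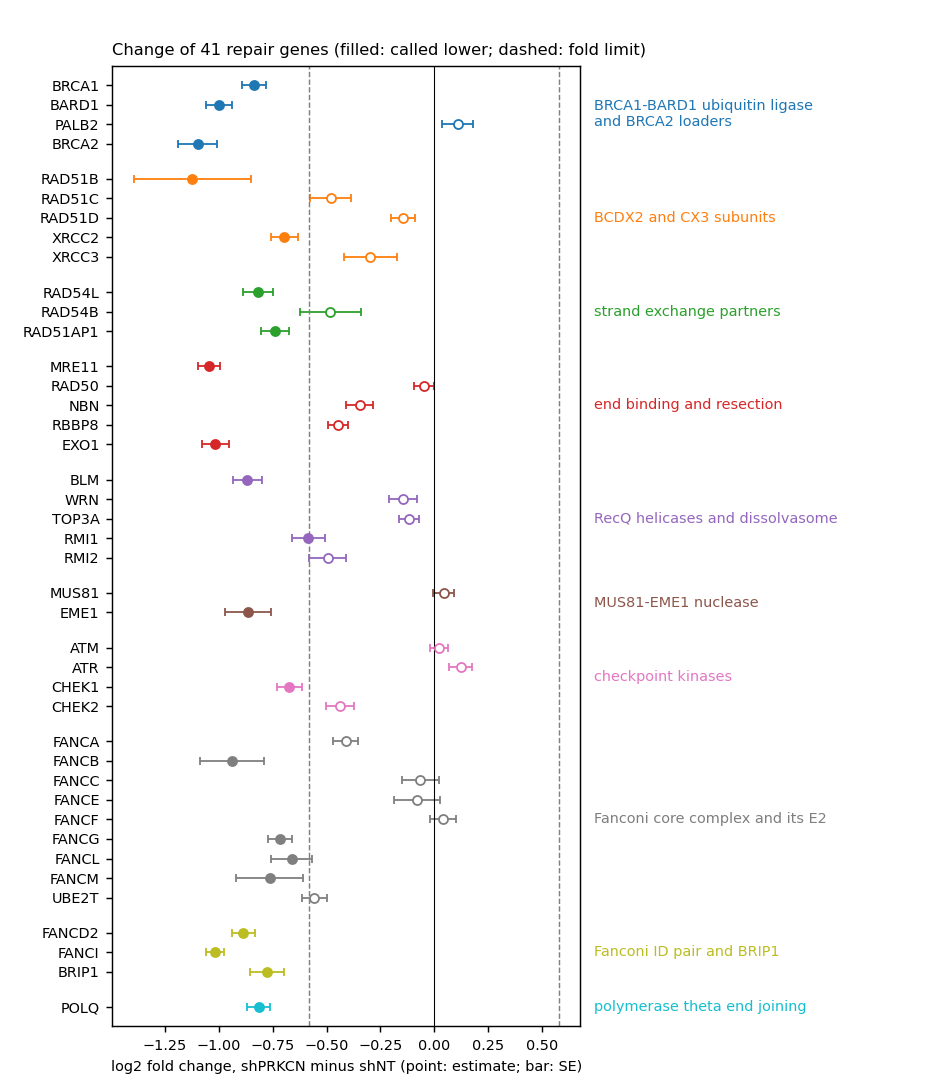
Log2 fold change (shPRKCN minus shNT, 3 libraries each) of the 41 genes by role, with bars for the standard error; filled points are called lower, open points are not called, and dashed lines mark a log2 fold change of 0.58 in either direction. The 21 filled points lie left of the dashed line at the left, and every group but the Fanconi ID pair with BRIP1, and POLQ alone, holds at least 1 open point.

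The libraries themselves differed little in depth. They held between 35625564 and 37730003 counts, their TMM scaling factors ran from 0.992 to 1.014, and the 100 most abundant genes took 28.13% to 28.99% of counts. Libraries of a group differed by a chi-square of 3.38 to 4.80 per degree of freedom, so none repeated another, and libraries of different groups by 63.8 to 70.2. PRKD3 itself measured 196 ± 6.68 FPKM (SD, n = 3) in shNT and 81.6 ± 4.51 in shPRKCN, or 41.01% of its shNT level (log2 fold change -1.29, SE 0.034, adjusted p = 8.2e-43 by edgeR). All 9 plasma cell markers found in the table, had 1242 counts or more in every library, but 4 of them were called lower in shPRKCN by edgeR: IRF4 (log2 fold change -1.85), XBP1 (-1.28), TNFRSF17 (-1.13) and SLAMF7 (-0.97). PRDM1 (-0.54) and MZB1 (-0.23) were also below shNT with no overlap. SDC1 was above shNT with no overlap (0.18, adjusted p = 2.1e-06 by edgeR), though not called. JCHAIN (0.01) and CD38 (-0.01) overlapped between the groups. By contrast, 10 of 11 B cell, T cell and myeloid markers stayed at 29 counts or fewer. The exception was CD3E, which ran from 379 to 419 counts in the shNT and from 1021 to 1150 in the shPRKCN libraries, while CD3D and CD3G, which encode the other chains of the same T cell receptor complex, were at 0 or 1 count. The plasma cell markers that were lower, and the G2/M and S phase genes described further on, moved with the repair genes, and their part in the result was not tested.

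Levels in single libraries are shown for each gene in the plot of FPKM by library. They spanned a wide range, from 0.207 FPKM for RAD51B to 46.5 FPKM for UBE2T in shNT. The members called lower had a median shNT level of 6.84 FPKM, and those not called one of 6.02 FPKM. Across the 41 genes, Spearman's rho between the log2 fold change and the log2 shNT level was -0.0080, and that with log2 gene length was -0.044. Both describe genes measured in the same 6 libraries, which are not independent points. Measured from the shNT mean, the median log2 deviation of the members was -0.54 in shPRKCN library 1, -0.68 in library 2 and -0.53 in library 3, with 36, 37 and 36 of the 41 genes below that mean. Library 2 was thus the lowest of the 3 for these genes.

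**Figure D2:**
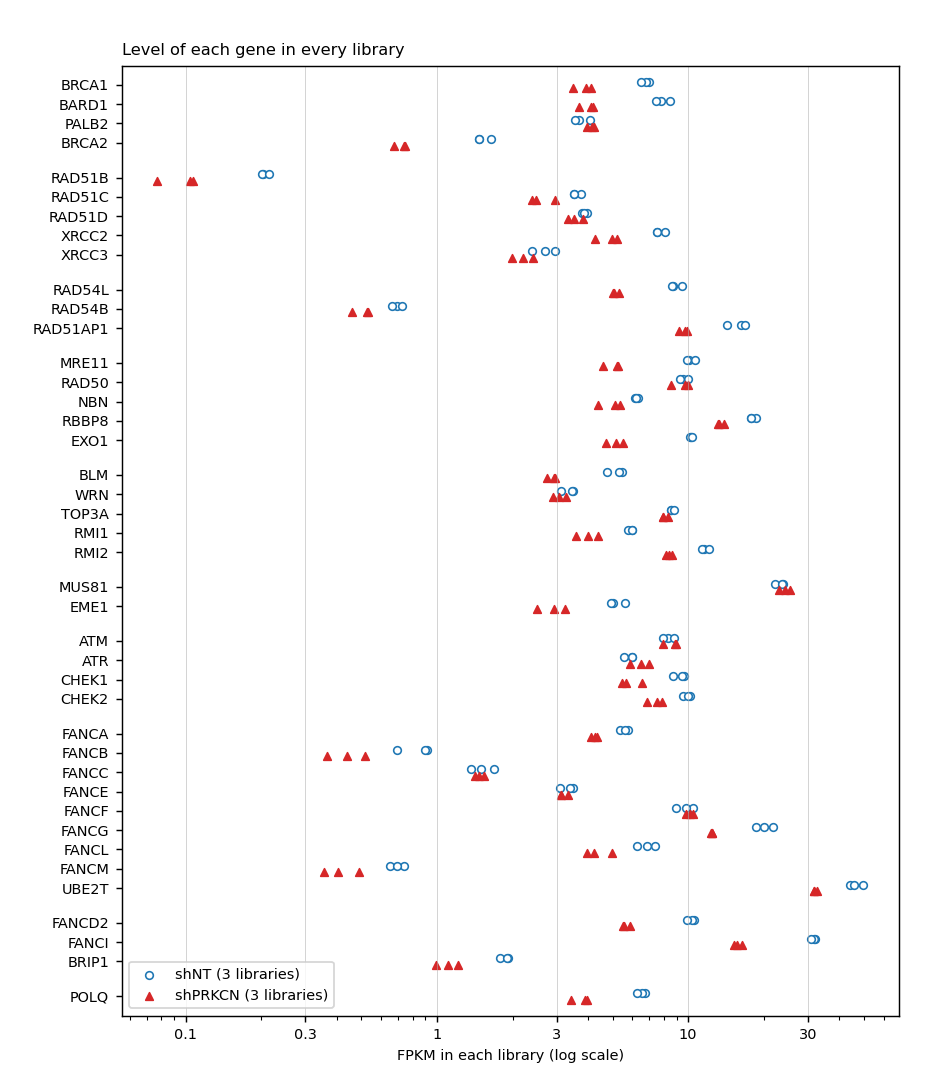
FPKM of each gene in every library on a log axis, with open circles for the 3 shNT and filled triangles for the 3 shPRKCN libraries, in the order of the roles. For BRCA2, MRE11, EXO1 and FANCI the triangles lie well left of the circles, and for PALB2, RAD50, MUS81 and ATM the symbols overlap.

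Among the BRCA genes, 3 of 4 fell. BRCA2, which works at the resected strand, was at 1.47, 1.64 and 1.47 FPKM in the shNT libraries and at 0.737, 0.678 and 0.750 FPKM in the shPRKCN libraries (log2 fold change -1.10, SE 0.090, adjusted p = 3.2e-17 by edgeR). BARD1, the partner that BRCA1 needs to be stable, measured 7.78, 8.44 and 7.43 FPKM against 3.67, 4.12 and 4.198 FPKM (log2 fold change -1.0, SE 0.061). BRCA1, a ubiquitin ligase that promotes resection, measured 7.01, 6.80 and 6.46 FPKM against 4.12, 3.48 and 3.90 FPKM (log2 fold change -0.84, SE 0.057). In these 3 genes each shPRKCN library lay below every shNT library. PALB2, which bridges BRCA1 and BRCA2, was the exception. Its levels of 3.69, 4.05 and 3.54 FPKM in shNT overlapped those of 3.96, 4.23 and 4.13 FPKM in shPRKCN, with a log2 fold change of 0.11 (95% interval -0.04 to 0.26, adjusted p = 0.21 by edgeR).

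All 5 subunits of the BCDX2 and CX3 complexes, which assist the early steps of strand pairing, were lower at an adjusted p under 0.05, and 2 of them were called. XRCC2 measured 7.54, 8.07 and 7.50 FPKM in shNT and 5.21, 4.28 and 4.99 FPKM in shPRKCN (log2 fold change -0.70, SE 0.063). RAD51B had the lowest log2 fold change of all members, -1.12, but rested on the fewest reads: 69, 71 and 77 counts against 27, 37 and 38, and an SE of 0.27. The groups did not overlap in either gene. The 3 subunits short of the fold limit were RAD51C, at 3.59 ± 0.14 against 2.61 ± 0.30 FPKM (log2 fold change -0.48), XRCC3, at 2.67 ± 0.29 against 2.20 ± 0.20 FPKM (-0.30, adjusted p = 0.038 by edgeR), and RAD51D, at 3.87 ± 0.088 against 3.54 ± 0.24 FPKM (-0.14, adjusted p = 0.026 by edgeR). RAD51D overlapped between the groups, and XRCC3 did so in FPKM (2.38 in the lowest shNT and 2.41 in the highest shPRKCN library) though not after TMM scaling.

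The partners of strand exchange act while the resected strand searches for the matching sequence. RAD54L, a translocase that drives the search, measured 9.45, 8.73 and 8.65 FPKM in shNT and 5.05, 5.33 and 5.03 FPKM in shPRKCN (log2 fold change -0.82, SE 0.070). RAD51AP1, a DNA-binding protein, went from 15.8 ± 1.3 to 9.60 ± 0.37 FPKM (log2 fold change -0.74). RAD54B, a relative of RAD54L present at a much lower level, was at 0.696 ± 0.032 and 0.505 ± 0.041 FPKM, and its log2 fold change of -0.48 (SE 0.14, adjusted p = 0.0025 by edgeR) stayed short of the fold limit. The groups did not overlap in any of the 3.

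The 3 subunits of the end-binding complex went apart. MRE11, its nuclease, measured 10.04, 10.7 and 9.92 FPKM in shNT and 5.26, 4.59 and 5.21 FPKM in shPRKCN, a log2 fold change of -1.04 (SE 0.051, adjusted p = 1.7e-28 by edgeR). RAD50, the long coiled-coil ATPase that holds the ends, measured 9.58, 9.98 and 9.25 FPKM against 9.72, 8.56 and 9.96 FPKM, with overlapping groups and a log2 fold change of -0.05 (95% interval -0.14 to 0.04). NBN, which recruits ATM, lay between them, at 6.13, 6.30 and 6.19 against 5.14, 4.38 and 5.34 FPKM (log2 fold change -0.35, SE 0.063, adjusted p = 2.4e-06 by edgeR), with no overlap but short of the fold limit. Of the resection factors, EXO1, the long-range exonuclease, fell from 10.3, 10.2 and 10.3 FPKM to 4.73, 5.18 and 5.53 FPKM (log2 fold change -1.02, SE 0.062). RBBP8, also known as CtIP, which starts resection with MRE11, was lower by less, from 18.1 ± 0.47 to 13.4 ± 0.37 FPKM (log2 fold change -0.45).

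The dissolvasome, in which the helicase BLM works with TOP3A, RMI1 and RMI2 to take apart crossed DNA strands, also changed unevenly. BLM measured 5.44, 5.30 and 4.77 FPKM in shNT and 2.96, 2.74 and 2.91 FPKM in shPRKCN (log2 fold change -0.87, SE 0.069). TOP3A, its topoisomerase, was at 8.62 ± 0.15 and 8.06 ± 0.20 FPKM (log2 fold change -0.12, adjusted p = 0.027 by edgeR). RMI1 was the called member nearest the limit, at 5.95, 5.75 and 5.97 FPKM against 4.38, 3.57 and 3.99 FPKM (log2 fold change -0.59). Its call was lost without 4 of the 6 libraries in turn, where the values ran up to -0.52, that one being without shPRKCN library 2. RMI2 stayed outside the limit, at 11.7 ± 0.41 and 8.41 ± 0.25 FPKM (log2 fold change -0.49). WRN, a RecQ helicase like BLM, overlapped between the groups, at 3.35 ± 0.19 and 3.07 ± 0.18 FPKM (log2 fold change -0.15, 95% interval -0.28 to -0.01, adjusted p = 0.056 by edgeR).

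In the nuclease MUS81-EME1, which cuts what the dissolvasome leaves, the catalytic subunit MUS81 overlapped between the groups, at 22.2, 23.8 and 23.6 against 24.4, 25.4 and 22.9 FPKM (log2 fold change 0.04, 95% interval -0.05 to 0.14). Its partner EME1 fell from 5.04, 4.93 and 5.59 FPKM to 2.93, 3.22 and 2.51 FPKM (log2 fold change -0.86, SE 0.11). In FPKM, EME1 stood at a ratio of 0.224 to MUS81 in shNT and of 0.119 in shPRKCN.

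Of the checkpoint kinases, only CHEK1 was called. It is the effector of ATR, and measured 9.62, 8.74 and 9.42 FPKM in shNT and 5.64, 5.45 and 6.55 FPKM in shPRKCN (log2 fold change -0.67, SE 0.058). CHEK2, the effector of ATM, was lower with no overlap but short of the limit, at 9.90 ± 0.35 against 7.42 ± 0.49 FPKM (log2 fold change -0.44, adjusted p = 3.2e-08 by edgeR). The kinases above them were not called. ATM was at 8.30, 8.78 and 7.97 against 8.85, 7.94 and 8.98 FPKM (log2 fold change 0.02, 95% interval -0.06 to 0.10). ATR was at 5.97, 5.95 and 5.58 against 6.47, 5.86 and 6.998 FPKM, the highest log2 fold change of all members at 0.12 (95% interval 0.02 to 0.23, adjusted p = 0.041 by edgeR), though its shPRKCN library 2 lay within the shNT range.

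In the Fanconi core complex, the size of the change also differed between subunits. FANCL is the ubiquitin ligase of the complex and UBE2T its E2 enzyme. FANCL fell from 7.40, 6.26 and 6.88 FPKM to 3.94, 4.22 and 4.99 FPKM (log2 fold change -0.66, SE 0.096). UBE2T, the most abundant member, went from 44.0, 45.7 and 49.8 FPKM to 32.6, 31.8 and 31.7 FPKM, and its log2 fold change of -0.56 (adjusted p = 3.8e-13 by edgeR) was the nearest outside the limit. Neither gene overlapped between the groups. FANCB, which binds FANCL, was at 0.837 ± 0.12 and 0.441 ± 0.075 FPKM (log2 fold change -0.94, SE 0.15), and FANCM, the translocase that anchors the complex to DNA, at 0.697 ± 0.045 and 0.416 ± 0.068 FPKM (-0.76, SE 0.16). FANCG, a scaffold subunit, fell from 20.1 ± 1.5 to 12.4 ± 0.079 FPKM (log2 fold change -0.72). FANCA, which binds FANCG, was lower by less, at 5.56 ± 0.21 and 4.23 ± 0.10 FPKM (log2 fold change -0.41). FANCC, FANCE and FANCF, which together link the core complex to the FANCD2-FANCI pair, overlapped between the groups, with log2 fold changes of -0.06 (95% interval -0.24 to 0.11), -0.08 (-0.29 to 0.14) and 0.04 (-0.08 to 0.16).

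Downstream of the core complex, all 3 genes fell. FANCI measured 32.0, 31.8 and 30.8 FPKM in shNT and 16.4, 15.6 and 15.3 FPKM in shPRKCN (log2 fold change -1.02, SE 0.041, adjusted p = 5e-33 by edgeR, the smallest among the members). FANCD2, the other subunit that receives ubiquitin, measured 10.6, 10.3 and 9.90 FPKM against 5.54, 5.85 and 5.49 FPKM (log2 fold change -0.89, SE 0.052). BRIP1, the helicase bound by BRCA1, measured 1.79, 1.92 and 1.90 FPKM against 1.21, 0.992 and 1.11 FPKM (log2 fold change -0.78, SE 0.079). The groups stood apart in each. POLQ, the polymerase of an error-prone route that joins resected ends without recombination, also fell, from 6.76, 6.54 and 6.24 FPKM to 3.95, 3.41 and 3.90 FPKM (log2 fold change -0.81, SE 0.054).

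The uneven changes within complexes were compared directly, as the log2 ratio of the counts of 2 members in each library, for 20 pairs of partners or relatives. With 3 libraries against 3, an exact two-sided permutation test cannot give a p below 0.1, which 16 pairs reached, with an adjusted value of 0.12 over the 20 pairs. The ratio was lower with no overlap between the groups for 13 pairs, higher for 3 and overlapping for 4. The direction of a ratio depends on which gene was written first, and over single genes, too, 29.8% of all tested genes separated downward and 29% upward, so the count of separated pairs is a description. BRCA2 against PALB2 moved most, from -0.05 ± 0.028 to -1.26 ± 0.11 (SD, n = 3), a difference of -1.21. MRE11 against RAD50 went from -0.04 ± 0.018 to -1.03 ± 0.025, and MRE11 against NBN from 1.24 ± 0.041 to 0.55 ± 0.053. The ratio of EME1 to MUS81 was lower by a difference of -0.91, that of CHEK1 to ATR by -0.80, and those of BLM to TOP3A and to WRN by -0.75 and -0.72. These differences were many times the spread between libraries of a group. EXO1 against RBBP8 (-0.57), CHEK2 against ATM (-0.46), RAD54L against RAD54B (-0.34), CHEK1 against CHEK2 (-0.24), RAD51C against XRCC3 (-0.19) and ATM against ATR (-0.10) differed less. The 3 higher ratios were RAD51D to XRCC2 (0.55), FANCA to FANCG (0.30) and FANCD2 to FANCI (0.13).

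In the other 4 pairs the libraries of the groups overlapped. BRCA1 against BARD1 changed by 0.16, with an SD of 0.083 in shNT and 0.21 in shPRKCN (exact permutation p = 0.3). RMI2 against RMI1 changed by 0.10 (exact permutation p = 0.4), UBE2T against FANCL by 0.11 (exact permutation p = 0.5), and FANCB against FANCL by -0.28 (exact permutation p = 0.4), the last with SDs of 0.26 and 0.39.

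**Figure D3:**
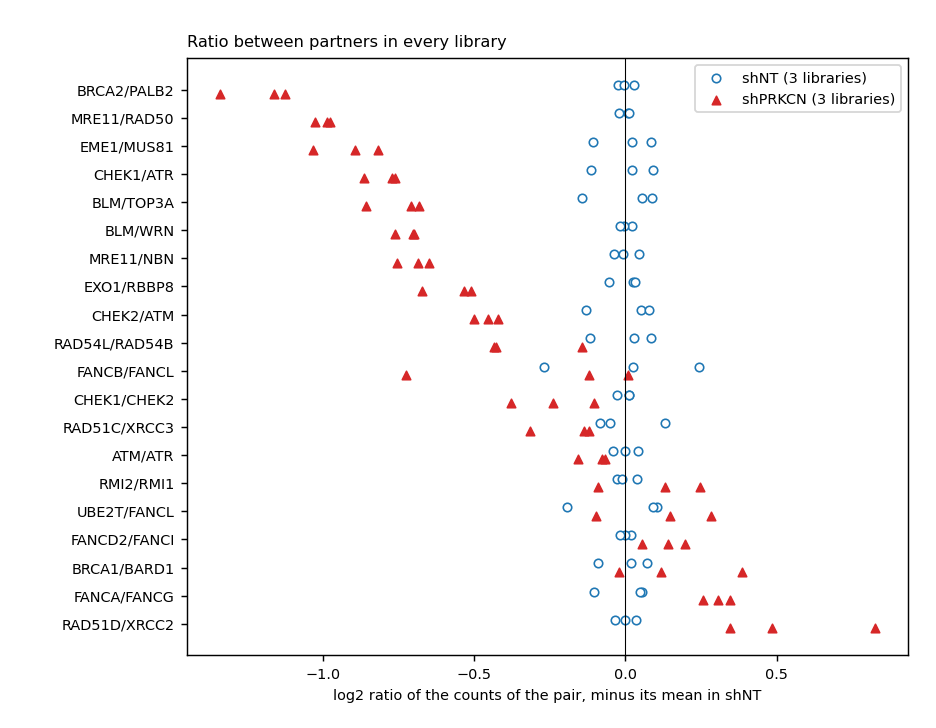
Log2 ratio of the counts of each pair in every library, set to 0 at the mean of the 3 shNT libraries (open circles), with the 3 shPRKCN libraries as filled triangles; pairs are ordered by the difference between groups. The triangles of BRCA2/PALB2 and MRE11/RAD50 lie near or beyond -1, and those of BRCA1/BARD1, RMI2/RMI1, UBE2T/FANCL and FANCB/FANCL overlap the circles.

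Other genes of recombination, the Fanconi pathway and the checkpoint were read beside the 41. Of 36 further recombination and Fanconi genes tested, 6 were called lower (16.7%) and none higher, with a median log2 fold change of -0.13. The 6 were DMC1, which is known for meiotic recombination (-1.56, on 33 to 61 counts, and 14 to 19 in the shPRKCN libraries), FIGNL1 (-0.84), HROB (-0.83) and the helicase MCM8 (-0.72), which act together, the resection nuclease DNA2 (-0.78) and the resolvase GEN1 (-0.70). Of 19 further checkpoint genes, 4 were called lower (21.1%) and 15 were lower at an adjusted p under 0.05, with a median of -0.41. They were CLSPN, the adaptor between ATR and CHEK1 (-0.96), the phosphatases CDC25A (-0.96) and CDC25C (-1.10), and WEE1, the kinase that opposes them (-0.68). With the fold limit, the members were thus called lower at a larger share than these relatives. Without it, the share lower at an adjusted p under 0.05 was 78.9% in the checkpoint list, near the members' 78.0%, and 41.7% in the wider recombination list. These shares describe lists of unequal make-up and were not tested.

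Other repair routes gave smaller shares, from 0 to 15.8% called lower, where 10.6% of all tested genes were. None of 18 genes of non-homologous end joining was called in either direction (median log2 fold change -0.03), while 4 had a lower and 4 a higher level that passed an adjusted p of 0.05 by edgeR, and the same numbers passed an unadjusted p of 0.05. In mismatch repair the count called by edgeR was 0 of 7 (median -0.08), with 3 lower and 1 higher at an unadjusted p under 0.05 and MSH6 the lowest at -0.47. DESeq2 also called 0 genes in both lists. In base excision and single-strand break repair 3 of 19 (15.8%) were called lower, the glycosylases NEIL3 (-1.31) and UNG (-0.69) and the break sensor PARP2 (-0.64). In nucleotide excision repair 1 of 18 (5.56%) was, the damage-binding protein DDB2 (-0.74), while the helicase subunit GTF2H1 (0.54) and ERCC6 (0.49) were the highest. The cell cycle lists of Seurat gave the largest shares. Of 40 S phase genes that are not members, 25 were called lower (62.5%, median -0.70), and of 54 G2/M genes 49 were (90.7%, median -0.90). None of these lists held a gene called higher by edgeR or DESeq2, though at an unadjusted p under 0.05 between 0 (G2/M) and 7 (nucleotide excision repair) of their genes were higher. RAD51AP1, EXO1 and BLM are themselves on the S phase list and were counted only as members.

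**Figure D4:**
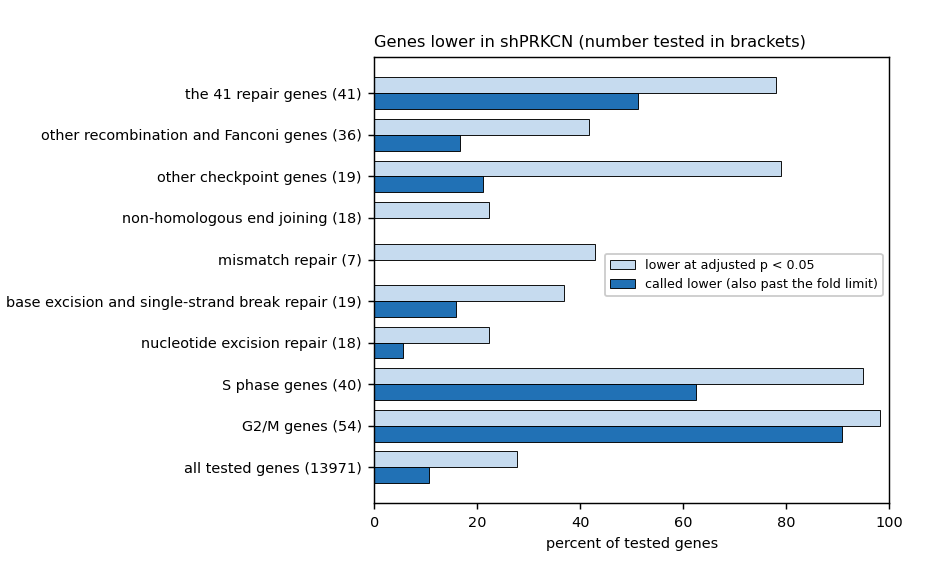
Percent of the tested genes of each list that were lower at an adjusted p under 0.05 (light bars) and called lower (dark bars), with the number tested in brackets. The dark bar of the 41 genes reaches 51.2%, between those of the other repair lists and those of the S phase and G2/M lists, and that of all tested genes stands at 10.6%.

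Promoter sequences were read from RefSeq windows on GRCh38.p14 that run from 250 bases before to 50 bases after the start. For each gene with a window, 1 was used, the one nearest the start of its principal GENCODE transcript. Of the 41 members 36 had a window, and RAD54B, NBN, WRN, RMI2 and FANCI had none in the table. In 35 the start lay within 500 bases of the GENCODE start, and that of RAD51B lay 3733 bases away. Both strands were searched for letters of the E2F type, which S phase genes are known for. These were TTGGCGC as the first form, TTCCCGC as the second, TTGCCGC as another and TTCGCGC as the last. The cell cycle homology region of G2/M genes was searched as TTTGAA and in the form of TTCGAA. The CCAAT box was searched by its own letters, and an interferon element as a pair of GAAA blocks with 2 bases between them. An E2F-type match stood in 21 of the 36 windows (58.3%), against 20.3% of the windows of all tested genes and 73.3% of those of the S phase list. Members called lower held one in 14 of 20 windows (70.0%) and members not called in 7 of 16 (43.8%), while 256 of the 1164 windows of all genes called lower did (22%). The cell cycle homology letters were in 13.9% of the members' windows, 11.3% of all tested genes' and 75.6% of the G2/M list's. CCAAT boxes were in 44.4% and 37.3% of the members' and all tested genes' windows. For these 2 kinds of letters the share was lower in the members called lower than in those not called, at 2 of 20 and 3 of 16 windows for the cell cycle homology letters and 8 of 20 and 8 of 16 for CCAAT. The interferon element stood in none of the members' and 3.18% of all. A match describes letters only, and was not tested as a site.

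The windows printed here are those of the called members with the lowest log2 fold changes, BRCA2 and MRE11, of ATR with the highest, and of BLM, which was chosen after its letters were seen because it shared with RMI1 the largest number of E2F-type matches. RAD51B is left out because its window does not hold its principal start. Each runs 5′ to 3′ from 250 bases before the start to the first 30 bases of the transcript, and capitals mark matches. BLM lies at chr15:90717096-90717375 (plus strand), BRCA2 at chr13:32315258-32315537 (plus strand), MRE11 at chr11:94493815-94494094 (minus strand) and ATR at chr3:142578704-142578983 (minus strand).
BLM: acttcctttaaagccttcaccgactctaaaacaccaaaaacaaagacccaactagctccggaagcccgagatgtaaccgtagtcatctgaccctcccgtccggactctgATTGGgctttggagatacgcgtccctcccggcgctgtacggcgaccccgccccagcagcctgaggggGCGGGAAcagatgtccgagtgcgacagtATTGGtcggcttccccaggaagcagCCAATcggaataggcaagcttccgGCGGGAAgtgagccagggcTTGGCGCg
BRCA2: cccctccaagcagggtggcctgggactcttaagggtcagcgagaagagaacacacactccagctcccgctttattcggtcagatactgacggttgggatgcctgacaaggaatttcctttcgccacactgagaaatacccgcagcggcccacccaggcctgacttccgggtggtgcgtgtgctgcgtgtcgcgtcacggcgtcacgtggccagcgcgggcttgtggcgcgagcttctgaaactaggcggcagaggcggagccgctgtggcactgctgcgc
MRE11: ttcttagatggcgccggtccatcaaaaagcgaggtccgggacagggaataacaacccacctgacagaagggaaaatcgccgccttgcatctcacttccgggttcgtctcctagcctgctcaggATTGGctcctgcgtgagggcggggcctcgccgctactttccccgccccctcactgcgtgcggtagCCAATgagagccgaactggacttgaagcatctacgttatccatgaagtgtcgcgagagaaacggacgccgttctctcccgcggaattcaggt
ATR: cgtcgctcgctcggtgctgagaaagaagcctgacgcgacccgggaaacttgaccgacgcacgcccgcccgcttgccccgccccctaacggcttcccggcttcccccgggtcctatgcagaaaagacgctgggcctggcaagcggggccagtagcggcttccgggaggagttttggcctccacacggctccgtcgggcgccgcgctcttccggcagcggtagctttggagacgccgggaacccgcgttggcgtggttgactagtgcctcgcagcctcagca

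In the BLM window, E2F-type letters begin 74 bases before the start and at bases 4 and 23 of the transcript, and CCAAT boxes, read on either strand, begin at -141, -46 and -21. The MRE11 window holds CCAAT boxes at -127 and -62 and no E2F-type match. The windows of BRCA2 and ATR held none of the 4 kinds of letters. As the 4 genes were picked for their letters or their changes, nothing is read from the comparison of their windows.

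Several members start back to back with another gene, so that a common stretch of DNA lies upstream of both. Of the 36 with a window, 16 had such a neighbour with its start within 1000 bases, and 12 of these neighbours were tested. None of the 12 was called in either direction by edgeR or DESeq2, with 3 lower and 2 higher at an unadjusted p under 0.05 by edgeR, where 7 of the 12 members beside them were called lower. Over all tested genes, edgeR called 10.6% lower and 6.15% higher. At those shares few of 12 genes would be called, so the count for the neighbours is a description. SNHG31, beside BARD1, was near the floor, at 0.15 FPKM in shNT with an SE of 0.50. The median log2 fold change of the neighbours was 0.05 (from -0.38 to 0.64). MRE11 and ANKRD49 start 140 bases apart, and ANKRD49 stood at 20.1 and 21.6 FPKM in the group means (log2 fold change 0.08, SE 0.054) where MRE11 fell by 1.04 on the log2 scale. BRCA1 and NBR2 start 193 bases apart, with 0.08 for NBR2 (SE 0.12), and EME1 and MRPL27 start 45 bases apart, with -0.24 for MRPL27 (SE 0.076). HNRNPK beside RMI1 was at -0.13 and MOSPD2 beside FANCB at -0.15 (SE 0.083). For ATM, which was not called, the neighbour NPAT, a regulator of histone genes, was lower by less than the limit, at -0.38 (SE 0.057, adjusted p = 5.4e-08 by edgeR). The highest value, 0.64 for LOC118567325 beside CHEK1, rested on about 1 FPKM and had an SE of 0.40.

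Read sharing limits a few of these values. RefSeq lists pseudogenes named after CHEK2 (6), FANCD2 (2), RBBP8 (2), BRCA1, RAD51AP1 and MRE11 (1 each). None of them is a row of the count table, so how reads common to a gene and its copies were assigned is uncertain for these 6 members. The strand setting of the counting is not given in the sources used here, and reads of genes that overlap on opposite strands may not be told apart.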

How the data were processed

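RNA of MM.1S cells (3 shNT and 3 shPRKCN libraries, day 3) had been sequenced by the authors, whose submission notes name FastQC, HISAT2, StringTie and GRCh38.p14 without versions, and whose methods name DESeq2. The authors deposited raw read counts per gene, and a table of FPKM values that equal the counts scaled by gene length and library total (largest relative deviation 6.1e-07). The quasi-likelihood test of edgeR 4.0.16 (R 4.3.3) was run on counts with TMM scaling and filterByExpr, over 13971 genes with Benjamini-Hochberg adjustment. A called gene had an adjusted p under 0.05 with a log2 fold change past 0.58. FPKM served for levels, and 95% intervals are the edgeR estimate with its standard error. Ratios of pairs used log2(counts + 0.5) and exact permutation tests over libraries. Alternatives tried were 3 other scalings (RLE, library size, upper quartile), DESeq2 1.42.0, 2 other filters, the replicate number as a block, log2(FPKM + 1) or log2(FPKM + 0.1) in limma 3.58.1, other fold limits and each library left out. Only the edgeR and DESeq2 calls were tested on simulated counts, which held 197 changed genes among 13962 tested, fewer than were called in the data. There edgeR recovered 97.5% and DESeq2 93.9% of the changed genes, and they called 4 and 0 unchanged genes. Promoter windows and pseudogene names were read with Python 3.11.15 from RefSeq tables (GRCh38.p14), with starts compared with GENCODE. S phase and G2/M lists were those of Seurat 5.3.0. The members and lists were chosen with earlier results of these data known. Named genes were all members, called genes of the related lists, up to 3 of each other list at either end, PRKD3 and back-to-back neighbours. A gene of the wider recombination list is not reported here.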

Additional observations from a re-analysis of the deposited data

How the results depend on the processing

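The number of members called lower was 20 or 21 of 41 under DESeq2, RLE, upper-quartile and library-size scaling, both other filters on counts, log2(FPKM + 0.1) and with each library left out in turn. It was 13 with limma on log2(FPKM + 1). It was also 13 with a minimum of 1 FPKM in 3 libraries, but RAD51B, RAD54B, FANCB and FANCM were then not tested. The pseudocount shrinks changes, most of all those of low genes. The members that lost their call included BRCA2 (-0.55) but also, at higher levels, FANCL (-0.545, 6.84 FPKM in shNT) and CHEK1 (-0.578, 9.26 FPKM in shNT). The number called lower was 15 with glmTreat and 32 without the fold limit, where 1 member, ATR, was higher. The median log2 fold change was -0.40 on log2(FPKM + 1) and -0.45 with the minimum of 1 FPKM, and ran from -0.60 to -0.56 with a library left out. Same-numbered libraries of the groups did not deviate together (correlations -0.042, -0.013 and 0.0038), and with the replicate number as a block 21 members were called lower, with a median of -0.59. The signs of 4 members turned with 1 library left out, none of them called: RAD50 ran from -0.079 to 0.0084, ATM from -0.011 to 0.067, FANCC from -0.13 to 0.017 and FANCF from -0.015 to 0.098. On log2(FPKM + 1), FANCB, at 0.837 FPKM in shNT, changed by -0.35, less than FANCL at -0.545. The FANCB/FANCL ratio on that scale was therefore 0.20, where it was -0.28 on counts. RMI1 lost its call under upper-quartile (-0.58) and library-size scaling (-0.57), and UBE2T gained one without shNT library 1 (-0.60). Without shNT replicate 1 or 3, or shPRKCN replicate 2 or 3, RMI1 was short of the limit. At 27 to 38 counts in shPRKCN, RAD51B is the member whose change is known least well. With 3 libraries a group, the exact test of a pair cannot pass 0.05.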
